A study of Mus musculus with 10 samples.

Results

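The genes described here are 6 genes of MHC class II antigen presentation: H2-Aa, H2-Ab1, H2-Eb1, H2-DMa, Cd74 and Ciita. They were found as the non-control probes whose gene name in the array files equals a member, which gave 7 probes, 2 of them for H2-Ab1. The arrays carry 34832 gene or transcript names, of which 32151 were tested, and all 6 members were among those tested. RNA came from cells sorted out of the midbrain of mice given the dopaminergic neurotoxin MPTP and then grafted on one side with haematopoietic stem and progenitor cells (HSPCs) from lineage-depleted donor marrow. The graft was placed 3 days after the last MPTP dose and the cells were collected 1 week later. Cells carrying both colours (RFP+YFP+) are hybrids formed by fusion of a graft cell with a recipient cell, and cells with RFP only are called unfused.

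The arrays fall into 5 groups of 2 replicates, and all groups share the MPTP lesion and the graft. R26Y hybrids are RFP+YFP+ cells from R26Y mice, whose YFP reporter needs Cre, grafted with HSPCs that carried Cre and RFP. GFAP-Cre hybrids and FoxA2-Cre hybrids are RFP+YFP+ cells from GFAP-Cre and FoxA2-Cre mice grafted with HSPCs bearing the R26Y reporter. The pooled unfused group holds RFP+ cells combined from R26Y and GFAP-Cre recipients, and the FoxA2-Cre unfused group holds RFP+ cells from FoxA2-Cre recipients. In the Cre recipients YFP can mark fusion only with cells that have expressed Cre, which Gfap or Foxa2 regulatory sequence drives, so graft cells fused with other recipient cells may lie among the RFP+ cells. Each replicate pools samples of 2 mice, and its RNA went through whole-transcriptome amplification before 500 ng of cDNA was labelled. The R26Y, GFAP-Cre and pooled unfused arrays share a slide and those of FoxA2-Cre recipients share another. Slide and recipient set thus cannot be told apart.

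MHC class II molecules are pairs of an alpha and a beta chain that display peptides from endosomes to CD4+ T cells. The chains assemble on the invariant chain Cd74, proteases trim that chain in the endosome, and the DM heterodimer then exchanges its last fragment for a peptide. Transcription of the group depends largely on the transactivator Ciita, which has no DNA contact of its own and docks on factors bound to conserved promoter boxes. B cells and dendritic cells carry class II constitutively, and macrophages and microglia raise it when activated.

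The promoters are shown first because the conserved boxes are what the class II genes have in common. RefSeq promoter windows of the build GRCm38.p6, which run from 250 bases before to 50 bases after a transcript start, were matched by symbol for 3 of the 6 members (H2-Aa, H2-Eb1 and H2-DMa). Capitals mark GCAAC, the core of the X box bound by RFX, and CTGATTGG, the Y box bound by NF-Y. The stretch of H2-Aa is chr17:34287827-34287944 on the minus strand and that of H2-Eb1 is chr17:34305736-34305852 on the plus strand, both upstream of the start.
H2-Aa promoter: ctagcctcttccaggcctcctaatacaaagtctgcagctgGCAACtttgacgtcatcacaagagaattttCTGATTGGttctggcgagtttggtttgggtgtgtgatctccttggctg
H2-Eb1 promoter: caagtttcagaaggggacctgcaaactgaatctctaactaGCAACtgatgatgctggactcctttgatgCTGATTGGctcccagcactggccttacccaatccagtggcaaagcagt
The boxes lie 25 bases apart in H2-Aa and 24 bases apart in H2-Eb1. GCAAC on either strand was found in 35.2% of 32851 promoter windows and CTGATTGG in 4.10%. Both in this order on 1 strand, at most 50 bases apart, were found in 65 windows (0.198%), among them those of the further class II genes H2-Eb2 and H2-Oa. Most of these windows belong to genes outside class II presentation, such as Fth1, Hmgb2 and Mcm10, so the pair is not particular to class II genes. The 2 windows of H2-DMa did not hold the pair. These matches are descriptions of the letters and not measured binding.

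The probes set what each value can mean. On the array's own mm9 coordinates the H2-Aa probe lies at chr17:34421285-34421344 on the minus strand, and the H2-Eb1 probe at chr17:34453075-34453134 on the plus strand. The H2-Ab1 probes, at chr17:34406296-34406355 and chr17:34406305-34406363, overlap by 51 bases and differ by T51C, counted from the 5′ end of the first. The H2-DMa probe has its ends at chr17:34274300-34274863, an interval longer than the probe itself, and the Ciita probe lies at chr16:10526568-10526627. The annotation used here does not place them in exons or UTRs of mm9. Stretches of 30 bases are printed for the H2-Ab1 probes, which differ at 1 base of their overlap, and for H2-Eb1, which has the largest difference. Capitals mark the base at which the H2-Ab1 probes differ and, in the H2-Eb1 probe, the hexamer AATAAA, which has the letters of a polyadenylation signal. Whether it acts as such a signal was not tested.
H2-Ab1 first probe, bases 31 to 60: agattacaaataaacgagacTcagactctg
H2-Ab1 second probe, bases 22 to 51: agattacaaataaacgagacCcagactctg
H2-Eb1 probe, bases 31 to 60: cttttttacatttttctcaAATAAAcaaat
The hexamer AATAAA, searched on the printed strand only, was found in 10.1% of the 55681 probes. The printed H2-Ab1 stretches hold it too, left in lower case. The Ciita probe is 30% GC and holds 6 tandem copies of AAAAC, counted in any phase. It is the only probe of the array with at least 6. Probes named for 3 other genes share at least 20 bases in a row with the Ciita probe, namely Odz1 with 26, Cbln2 with 22 and Prg4 with 20. The Odz1 probe holds 5 tandem copies of AAAAC, and those of Cbln2 and Prg4 hold 4 each. All 3 were well above background on all 10 arrays, as the Ciita probe was, which held for 16.5% of all probes. Their correlation with the Ciita probe over the 10 arrays, after centring on each slide, was -0.36 for Odz1, 0.30 for Cbln2 and 0.75 for Prg4. The part of the repeat and of such shared letters in the Ciita signal was not tested.

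Depth differed between the slides. Spots well above background made up 64.3% to 86.7% on the arrays of R26Y, GFAP-Cre and pooled unfused cells and 19.8% to 49.2% on the FoxA2-Cre arrays, and no spot was saturated. The pan-leukocyte gene Ptprc was well above background on 10 of 10 arrays and the progenitor receptor gene Kit on 7. Levels below are log2 of the processed signal minus the array's 75th percentile over the spots well above background on every array, so 0 is the level of a bright spot and a difference of 1 is a doubling. A level that was not well above background is an upper bound.

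**Figure D1:**
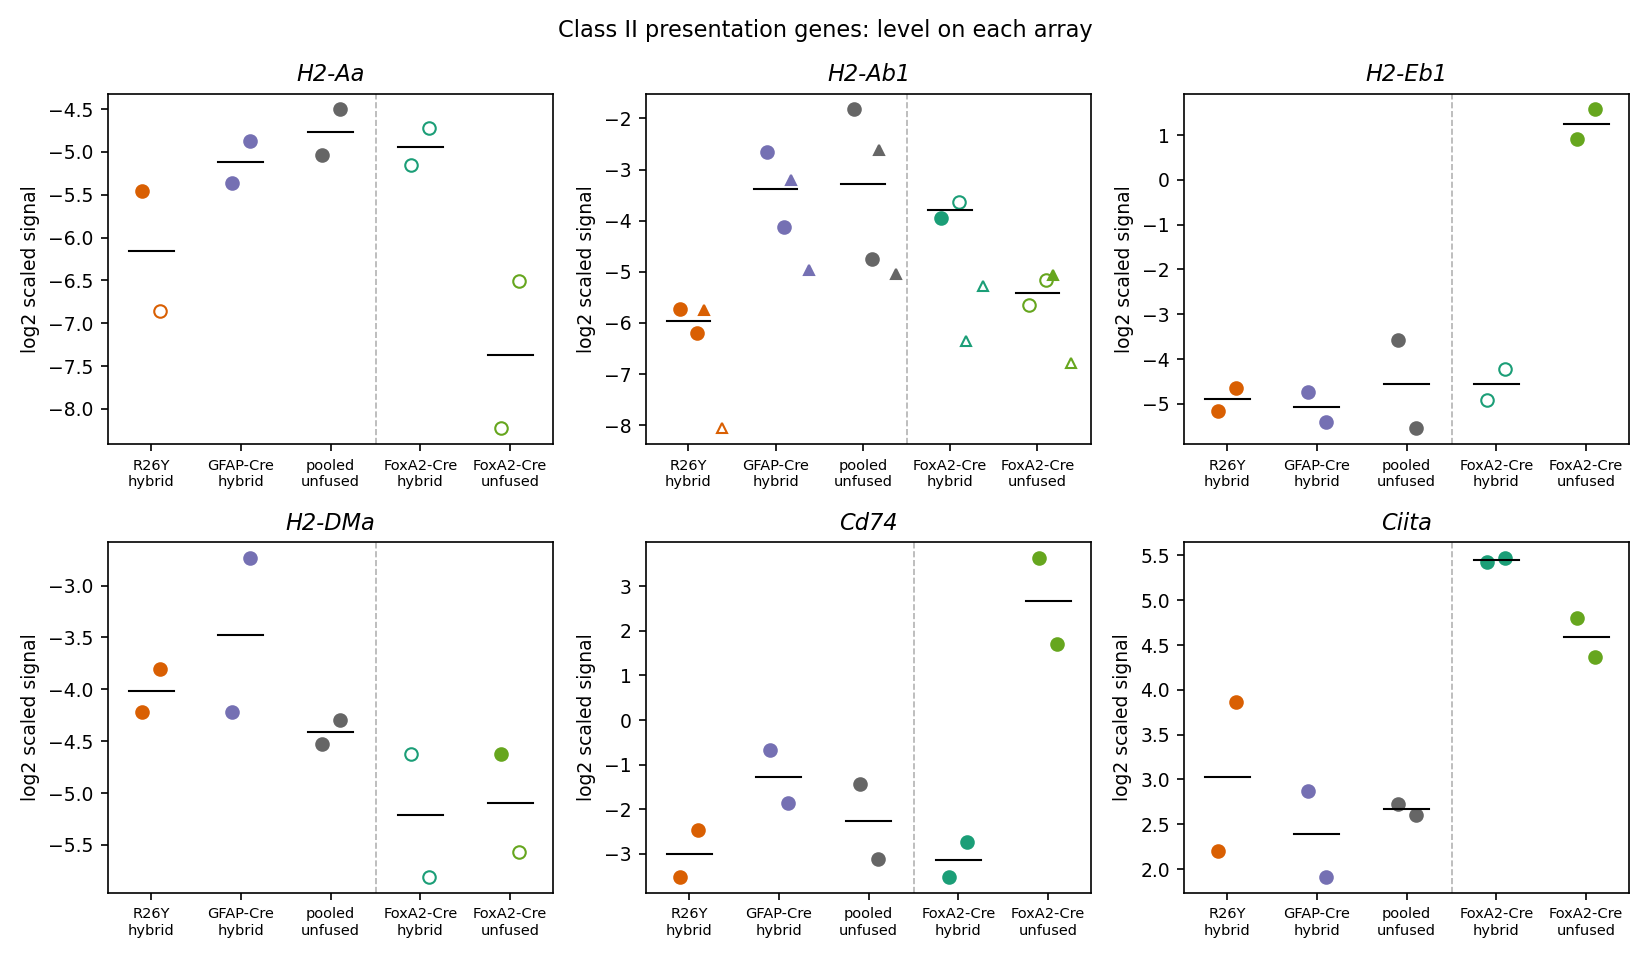
Level of each of the 6 genes on each of the 10 arrays, in log2 units relative to the array's 75th percentile, by group; each panel has its own scale and the dashed line separates the 2 slides. Filled points are arrays on which the probe was well above background and open points those on which it was not, triangles are the second H2-Ab1 probe, and horizontal bars are means of 2 arrays. The FoxA2-Cre unfused arrays stand above all others for H2-Eb1 and Cd74.

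H2-Aa encodes the alpha chain of the I-A class II molecule. Its level was -5.45 and -6.86 in R26Y hybrids, -5.37 and -4.87 in GFAP-Cre hybrids, and -5.03 and -4.50 in pooled unfused cells. On the other slide it was -5.16 and -4.72 in hybrids and -8.23 and -6.51 in unfused cells. None of those 4 FoxA2-Cre values, nor the second R26Y hybrid value, was well above background, so the order of groups on that slide is an order of bounds. The group means ran from -4.77 ± 0.37 (SD, n = 2) in pooled unfused cells to -7.37 ± 1.21 in FoxA2-Cre unfused cells. Next to the first came FoxA2-Cre hybrids (-4.94) and GFAP-Cre hybrids (-5.12), and these 3 means were not separated by more than their spread.

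H2-Ab1 encodes the beta chain that pairs with H2-Aa. Its tested probe read -5.74 and -6.21 for R26Y hybrids, -2.65 and -4.12 for GFAP-Cre hybrids, and -1.82 and -4.75 for pooled unfused cells, all well above background. FoxA2-Cre hybrids gave -3.95 and -3.63 and FoxA2-Cre unfused cells -5.66 and -5.16, with only the first FoxA2-Cre hybrid array well above background. The R26Y hybrid arrays were the lowest pair on their slide, below every GFAP-Cre hybrid and pooled unfused array. The 2 pooled unfused arrays lay far apart (SD 2.07), further than the arrays of any other group, so the pooled unfused mean (-3.29) is not separated from those of GFAP-Cre hybrids (-3.38) and FoxA2-Cre hybrids (-3.79). The second H2-Ab1 probe gave -5.74 and -8.06 for R26Y hybrids, -3.21 and -4.97 for GFAP-Cre hybrids and -2.61 and -5.04 for pooled unfused cells, with the R26Y hybrids again lowest. On the FoxA2-Cre slide the second probe was well above background on 1 array, an unfused one.

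H2-Eb1 encodes the beta chain of the I-E molecule. Its level was -5.15 and -4.64 in R26Y hybrids, -4.74 and -5.40 in GFAP-Cre hybrids, and -3.57 and -5.55 in pooled unfused cells. In FoxA2-Cre hybrids it was -4.92 and -4.22, not well above background on either array. In FoxA2-Cre unfused cells it was 0.92 and 1.57, the 2 highest of the 10 values, with processed signals of 1424 and 1149 against 13.2 and 9.48 on the FoxA2-Cre hybrid arrays. The other 8 arrays spanned -5.55 to -3.57, and the order among those 4 groups is within their own spread.

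H2-DMa encodes the alpha chain of the DM peptide editor. Its level was -4.22 and -3.81 in R26Y hybrids, -4.22 and -2.73 in GFAP-Cre hybrids, and -4.53 and -4.29 in pooled unfused cells. It was -4.62 and -5.81 in FoxA2-Cre hybrids and -4.63 and -5.57 in FoxA2-Cre unfused cells, where 1 of these 4 values, the first unfused one, was well above background. The FoxA2-Cre groups overlapped fully, and on the other slide both hybrid types lay above both pooled unfused arrays by small margins. The GFAP-Cre hybrids had the highest group mean, -3.48 ± 1.05 (SD, n = 2).

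Cd74 encodes the invariant chain and lies on chromosome 18, outside the class II cluster, and its probe was well above background on all 10 arrays. Its level was -3.51 and -2.47 in R26Y hybrids, -0.67 and -1.86 in GFAP-Cre hybrids, and -1.43 and -3.10 in pooled unfused cells. It was -3.51 and -2.74 in FoxA2-Cre hybrids and 3.63 and 1.70 in FoxA2-Cre unfused cells, again the 2 highest of the 10. The processed signals behind the last 4 values were 34.9, 26.3, 9360 and 1256. Below the FoxA2-Cre unfused cells, the GFAP-Cre hybrids (mean -1.26 ± 0.84, SD, n = 2) and pooled unfused cells (-2.26 ± 1.18) were not separated by more than their spread, nor were R26Y hybrids (-2.99 ± 0.74) and FoxA2-Cre hybrids (-3.13 ± 0.54).

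The Ciita probe, which shares letters with 3 other probes as described above, read 2.21 and 3.86 in R26Y hybrids, 2.88 and 1.91 in GFAP-Cre hybrids, and 2.72 and 2.61 in pooled unfused cells. It read 5.42 and 5.47 in FoxA2-Cre hybrids and 4.80 and 4.37 in FoxA2-Cre unfused cells. All 4 FoxA2-Cre values were above all 6 values of the other slide. The processed signals showed no such step. They ran from 7816 to 21046 on the FoxA2-Cre slide and from 9474 to 20508 on the other. The step thus appears only after each array's percentile is subtracted, and slide and recipient set cannot be told apart in it. No higher Ciita signal in FoxA2-Cre recipients is read from it. Within a slide the groups of R26Y hybrids, GFAP-Cre hybrids and pooled unfused cells overlapped, and both FoxA2-Cre hybrid arrays lay above both unfused arrays.

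The comparison of FoxA2-Cre hybrids with FoxA2-Cre unfused cells showed the largest differences among the members. H2-Eb1 and Cd74 were both lower in the hybrids, H2-Eb1 by at least 43.4-fold against the background level of the hybrid arrays. That bound holds for the main processing only, since other processing gave smaller sizes. The fitted log2 difference, hybrid minus unfused, was -5.81 ± 0.75 (SE) for H2-Eb1 with a limma adjusted p of 0.0223. For Cd74 it was -5.79 ± 0.91 with an adjusted p of 0.0488. The sizes were smaller with normexp background correction, -3.23 for H2-Eb1 and -4.09 for Cd74, and with the authors' log2 matrix, -3.98 and -4.60. The other 4 members did not pass the test, so 2 of 6 members were called, both lower, where 0.529% of all genes were called, 0.476% lower and 0.0529% higher. On the 2 FoxA2-Cre unfused arrays H2-Aa and the tested H2-Ab1 probe were well above background on 0, so a fall in the hybrids could not be seen for them. H2-DMa and the second H2-Ab1 probe were well above background on the first unfused array and on neither hybrid array. Their fitted differences were -0.12 and 0.10. The difference is thus shown for H2-Eb1 and Cd74 only, and a difference of the members as a set is neither shown nor excluded. In this bulk measurement fewer cells with H2-Eb1 and Cd74 RNA and less of that RNA per cell cannot be told apart.

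Relative to the median difference of all genes in that comparison, 0.36, the shifts were -6.18 for H2-Eb1 and -6.16 for Cd74. At an unadjusted p under 0.05, 4.8% of all genes were higher and 3.84% lower, and H2-Aa was such a member beside H2-Eb1 and Cd74. H2-Aa had a fitted difference of 2.43 ± 0.75 (limma unadjusted p = 0.0126, adjusted p = 0.420), between groups that were both below background. H2-Ab1 had 1.62 ± 0.96 (limma adjusted p = 0.654), from a hybrid group with 1 of 2 arrays well above background. The second H2-Ab1 probe gave 0.10 ± 1.18. Ciita had 0.86 ± 0.67 (adjusted p = 0.710) and H2-DMa -0.12 ± 0.71 (adjusted p = 0.961). The arrays of the groups did not overlap for H2-Eb1 and Cd74, lower in hybrids, and for H2-Aa, H2-Ab1 and Ciita, higher in hybrids, while H2-DMa overlapped. For H2-Aa, well above background on 0 of the 4 arrays, and H2-Ab1, on 1 of 4, that is an order of values mostly at or below background, and no direction is read from it. Ciita turned to -0.12 with quantile normalization and -0.12 with the authors' log2 matrix, and H2-DMa to 0.79 with normexp background correction and 0.079 with that matrix, so no direction holds for these 2. Non-overlapping arrays were found for 10.6% of all genes in the lower and 26.5% in the higher direction.

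Neither call was made within the FoxA2-Cre slide alone. Fitted on the 4 FoxA2-Cre arrays alone, H2-Eb1 had an adjusted p of 0.143 and Cd74 of 0.223, and 0 genes in all were called. With the replicate number as a block the values were 0.0549 and 0.0860. Leaving out 1 array, the H2-Eb1 call was lost without the first FoxA2-Cre hybrid array (adjusted p = 0.0690) or either GFAP-Cre hybrid array (0.0694 each). The Cd74 call was lost without either pooled unfused array (0.101 each), either GFAP-Cre hybrid array (0.120 each), the first or second FoxA2-Cre hybrid array (0.135 and 0.0801), or the first FoxA2-Cre unfused array (0.105). On that slide both hybrid arrays lie in one row of array positions and both unfused arrays in the other, so position and cell type cannot be told apart there. The direction of both genes was kept in each of these fits.

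**Figure D2:**
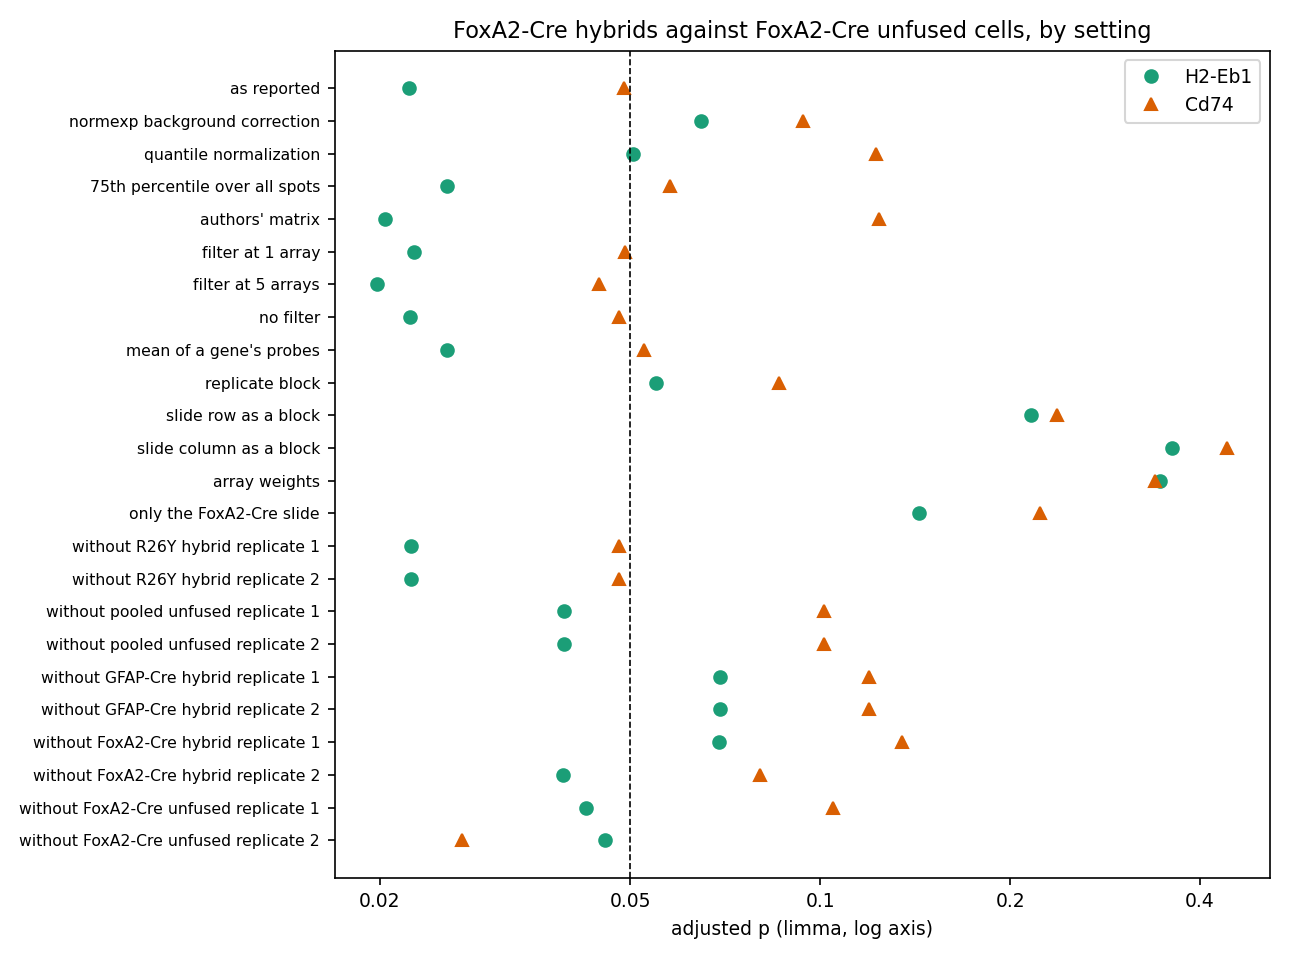
Adjusted p (limma, log axis) of H2-Eb1 (circles) and Cd74 (triangles) in FoxA2-Cre hybrids against FoxA2-Cre unfused cells, as reported, under 13 other settings and in 10 fits that each leave out 1 array; the dashed line is the threshold of 0.05. H2-Eb1 lies between 0.0198 and 0.361 and Cd74 between 0.0270 and 0.442.

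In R26Y hybrids against pooled unfused cells the fitted log2 difference of H2-Ab1 was -2.68 ± 0.96, which did not pass the test (limma unadjusted p = 0.0247, adjusted p above 0.99). It was -1.22 without the first pooled unfused array and -4.15 without the second, and the second probe gave -3.08 ± 1.18. H2-Aa had a fitted difference of -1.39 ± 0.75, Cd74 -0.73 ± 0.91, H2-Eb1 -0.34 ± 0.75, Ciita 0.37 ± 0.67 and H2-DMa 0.40 ± 0.71. No member was called at an adjusted p of 0.05 and neither was any of the 32151 genes (0%), of which 445 had an unadjusted p under 0.05; H2-Ab1 was the only member among these, and 1.11% of all genes were lower and 0.277% higher at that level. The arrays did not overlap for H2-Aa and H2-Ab1, lower in hybrids, against 19.6% of all genes, and for H2-DMa, higher, against 10.6%.

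Against the same pooled unfused arrays, GFAP-Cre hybrids showed no member past the test. The fitted difference was 1.00 ± 0.91 for Cd74, and 0.16 to 1.84 when 1 array was left out. For H2-DMa it was 0.93 ± 0.71, and 0.19 to 1.68 when 1 array was left out. H2-Eb1 had -0.51 ± 0.75, H2-Aa -0.35 ± 0.75, Ciita -0.27 ± 0.67 and H2-Ab1 -0.09 ± 0.96. No member and none of all genes was called (0%), 520 of all genes (0.83% higher and 0.787% lower) had an unadjusted p under 0.05 and no member did. H2-DMa alone had arrays that did not overlap, higher in hybrids, against 19.9% of all genes. This comparison and the one of R26Y hybrids use the same 2 pooled unfused arrays, so their differences are not independent.

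The 2 hybrid types of that slide were also set directly against each other. The fitted difference of H2-Ab1, GFAP-Cre minus R26Y hybrids, was 2.59 ± 0.96 log2 units and did not pass the test (limma unadjusted p = 0.0286, adjusted p above 0.99), and the second probe gave 2.81 ± 1.18. Cd74 had a difference of 1.73 ± 0.91, H2-Aa 1.04 ± 0.75, H2-DMa 0.54 ± 0.71, H2-Eb1 -0.17 ± 0.75 and Ciita -0.64 ± 0.67. No member and no gene was called (0%), while 881 genes (2.09% higher and 0.653% lower) had an unadjusted p under 0.05, with H2-Ab1 the only member. The arrays of H2-Ab1, Cd74 and H2-Aa did not overlap, higher in GFAP-Cre hybrids, against 20.2% of all genes, and no member had arrays that were all lower in GFAP-Cre hybrids, which 7.48% of all genes had. R26Y hybrid depth was uneven, 84.1% and 64.3% of spots well above background, and its part in these differences was not tested.

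**Figure D3:**
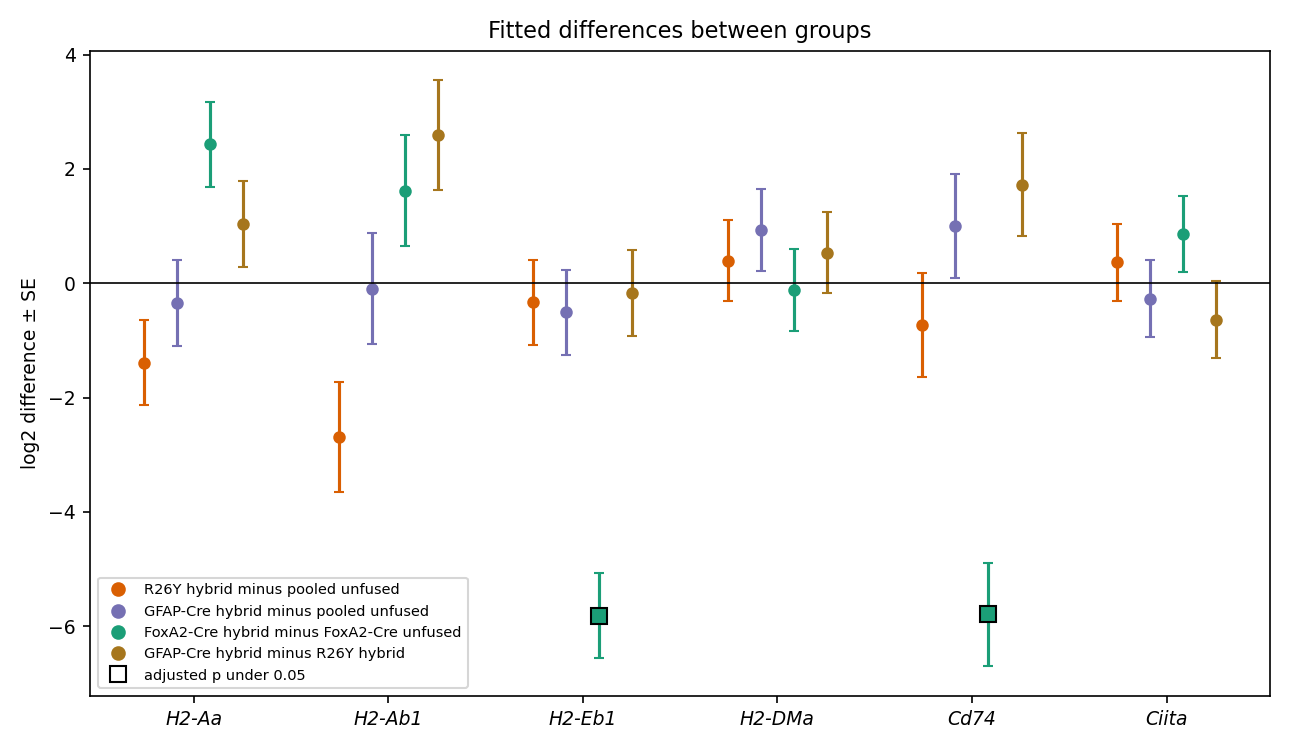
Fitted log2 differences (points) with standard errors (bars) of the 6 genes in 4 comparisons; squares mark an adjusted p under 0.05. Only H2-Eb1 and Cd74 in FoxA2-Cre hybrids against FoxA2-Cre unfused cells, at -5.81 and -5.79, are squares.

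Over both slides, all hybrids against all unfused cells gave no call (0% of genes), with an unadjusted p under 0.05 for 1002 genes (1.78% higher and 1.34% lower). H2-Eb1 had the lowest member p in that fit (difference -2.73 ± 0.96, limma unadjusted p = 0.0180, adjusted p above 0.99), followed by Cd74 with -2.40 ± 1.14 (unadjusted p = 0.0620). H2-Aa had a difference of 0.54 ± 0.72, Ciita 0.40 ± 0.43, H2-DMa 0.33 ± 0.45 and H2-Ab1 -0.10 ± 0.92. The median over the 6 members was 0.12, beside 0.03 for all genes. On the R26Y and GFAP-Cre slide alone the H2-Eb1 difference was -0.42 and that of Cd74 0.14.

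Whether the hybrid difference itself differed between slides was tested as the FoxA2-Cre difference minus the mean of the R26Y and GFAP-Cre differences. It was -5.39 ± 0.99 for H2-Eb1 (limma adjusted p = 0.194), -5.93 ± 1.20 for Cd74 (0.272), 3.30 ± 0.99 for H2-Aa (0.716) and 3.01 ± 1.28 for H2-Ab1 (0.836). H2-DMa had -0.78 ± 0.94 and Ciita 0.81 ± 0.89. None of the 6 members passed, where 0.0933% of all genes did (0.0124% higher and 0.0809% lower). Before adjustment 4 members had p under 0.05, H2-Eb1 and Cd74 lower and H2-Aa and H2-Ab1 higher, where 2.24% of all genes were lower and 3.37% higher. The H2-Eb1 and Cd74 differences are thus called in FoxA2-Cre recipients and not shown to differ from those of the other recipients.

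Across the 10 arrays, centred on each slide, the levels of H2-Eb1 and Cd74 correlated at 0.90. H2-Aa and H2-Ab1, which encode the chains of 1 molecule, correlated at 0.58. H2-Aa correlated at -0.71 with H2-Eb1 and at -0.73 with Cd74, and Ciita at -0.39 with H2-Eb1 and -0.36 with Cd74. H2-Aa was well above background on 0 of the 4 FoxA2-Cre arrays, its lowest group there being the unfused one (-8.23 and -6.51). No inverse relation is therefore read from its correlations. The values of an array share its scaling and depth, and the highest values of both H2-Eb1 and Cd74 are those of the 2 FoxA2-Cre unfused arrays.

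By the same measure, the 3 genes most like each member were sought among 17245 candidates with a symbol that were well above background on at least 5 arrays. For H2-Eb1 they were H4c4 (0.97), Pfn1 (0.97) and H4c14 (0.96), and for Cd74 Arpc3 (0.97), Fam47e (0.97) and Rnu3b1 (0.97). For H2-Ab1 they were Adh4 (0.93), Etd (0.91) and Cd52 (0.91), and for H2-Aa Nup107 (0.99), Tpcn2 (0.97) and Olfr1183 (0.97). For H2-DMa they were Klk13 (0.95), Cd300ld (0.93) and Tmem184a (0.92), and for Ciita Canx (0.96), Stk-ps2 (0.96) and Msn (0.96). No member was among the 3 likest genes of another because members were not candidates. H2-Aa was well above background on 5 of the 10 arrays, H2-Ab1 and H2-DMa on 7 and H2-Eb1 on 8. The likeness of these members thus takes in values at or below background.

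Among the remaining class II genes no difference passed the test. Of the 5 further chains and editors, H2-DMb1, H2-DMb2, H2-Oa, H2-Ob and H2-Eb2, none was called in any of the 6 comparisons. In FoxA2-Cre hybrids against unfused cells 4 of the 5 were above 0, with a median of 0.99 beside 0.36 for all genes. Only 1 to 2 of the 5 were well above background on the hybrid arrays there and 0 to 3 on the unfused arrays. H2-Oa, a chain of the DO inhibitor of the DM editor, had 2.97 ± 0.98 (limma unadjusted p = 0.0174, adjusted p = 0.461). H2-Oa was -0.31 on the first FoxA2-Cre hybrid array and -3.35 or lower on the other 9. H2-DMb2, a beta chain of DM, was -4.61 and -1.92 on the GFAP-Cre hybrid arrays, both above the other 8. Its fitted difference was 3.03 ± 0.92 against pooled unfused cells (limma unadjusted p = 0.0115) and 3.43 ± 0.92 against R26Y hybrids (unadjusted p = 0.00623), neither called after adjustment. H2-DMb1, named after its values were seen, was 0.07 on the first FoxA2-Cre unfused array and -6.56 on the second.

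The class II transcription factors had no call either. Of the RFX subunits Rfx5, Rfxap and Rfxank, the NF-Y subunits and Creb1, 6 of 7 genes were tested in all 6 comparisons. Rfxank had -1.71 ± 0.68 in FoxA2-Cre hybrids against unfused cells (adjusted p = 0.547), and Nfya 0.45 ± 0.81. The median of the list there was 0.41 beside 0.36 for all genes. Of 9 tested genes of interferon gamma signalling, the inducer of class II in most cells, none was called. Of 14 tested genes of class I presentation none was called either. In FoxA2-Cre hybrids against unfused cells 11 were above 0, with a median of 0.63 beside 0.36 for all genes. Of the 14, 4 to 6 were well above background on the hybrid arrays there and 5 to 9 on the unfused arrays.

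Genes of endosomal antigen processing varied more from array to array. Of 10 tested none was called. In FoxA2-Cre hybrids against unfused cells 6 were above 0, with a median of 1.06 beside 0.36 for all genes. On each hybrid array there 6 of the 10 were well above background, and 4 to 7 on the unfused arrays. Ctss, the protease that trims Cd74, was 4.24 and 4.78 on the FoxA2-Cre hybrid arrays and 3.76 and -6.99 on the unfused ones, the last not well above background. Ctsb, another cathepsin, was 5.21 and 7.58 against -5.71 and 4.32. The fitted differences, 6.13 ± 3.05 for Ctss and 7.09 ± 2.97 for Ctsb, had adjusted p-values of 0.610 and 0.574 in limma. Of the co-stimulatory genes, which deliver the second signal to T cells, 6 were tested and none called. In that comparison all 6 were above 0, with Cd86 at 1.54 ± 0.65 and Cd40 at 1.56 ± 1.06. The median of the list was 0.98 beside 0.36 for all genes. Only 1 to 2 of the 6 were well above background on any FoxA2-Cre array, so no direction is read for the list.

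Markers of cells that could carry class II were read beside the FoxA2-Cre result. Mean levels of 10 dendritic cell markers were -4.46 and -3.67 on the FoxA2-Cre hybrid arrays and -4.77 and -3.90 on the unfused arrays, with the dendritic integrin gene Itgax well above background on none of the 4. Of the 10, 3 and 2 were well above background on the hybrid arrays and 5 and 6 on the unfused arrays. Mean levels of 9 B cell markers were -3.37 and -2.90 against -3.84 and -2.41, with 4 of the 9 well above background on each hybrid array and 5 on each unfused array. A list mean takes in genes not well above background, whose levels are upper bounds. The B cell receptor component gene Cd79a was -5.41 and -5.68 against -5.34 and -4.92, well above background on the first unfused array alone. No dendritic cell or B cell marker was called in any comparison.

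Neutrophil and microglia markers were read on the same arrays. Mean levels of 10 neutrophil markers were -4.23 and -3.80 on the FoxA2-Cre hybrid arrays and -0.83 and -1.12 on the unfused arrays. On the hybrid arrays 4 and 1 of the 10 were well above background, and 7 on each unfused array. Of these markers, 2 were called lower in the hybrids, where 0.476% of all genes were called lower. They were Mpo, the granule peroxidase (-7.89 ± 1.05, limma adjusted p = 0.0260), and S100a9, a calcium-binding alarmin (-8.60 ± 1.33, adjusted p = 0.0473). Of the 10, 7 had differences below 0 and 3 above. Mpo was 1.79 and 1.55 on the unfused arrays and not well above background on the hybrid ones, like H2-Eb1. Mean levels of 9 microglia markers were -1.01 and -1.63 on the hybrid arrays and -2.43 and -2.66 on the unfused arrays. On the hybrid arrays 7 and 3 of the 9 were well above background, and 7 and 5 on the unfused arrays. Of their fitted differences 5 were above 0 and 4 below, and none was called. Cx3cr1, the microglial fractalkine receptor gene, had 2.64 ± 0.86 (adjusted p = 0.446) and Trem2 6.02 ± 2.58 (adjusted p = 0.578). Of 9 tested markers of monocytes and macrophages none was called, and their mean levels were -2.64 to -2.46 on the hybrid and -2.89 to -2.82 on the unfused arrays. The part of any of these cell types in the H2-Eb1 and Cd74 differences was not tested.

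The same lists were read on the other slide. Mean neutrophil levels were -4.44 to -3.11 on the 4 hybrid arrays and -2.54 to -1.98 on the pooled unfused arrays, and mean microglia levels -3.25 to -1.96 and -3.43 to -3.40. Mean B cell levels were -3.42 to -1.61 on hybrid and -1.68 to -1.62 on pooled unfused arrays, the lowest being the second R26Y hybrid array. Itgax was -3.86 and -3.05 in GFAP-Cre hybrids and not well above background on the R26Y hybrid arrays, and no list member was called in either comparison. T and NK cell, progenitor, astrocyte, neuron, and endothelium and pericyte lists gave no call in any comparison.

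**Figure D4:**
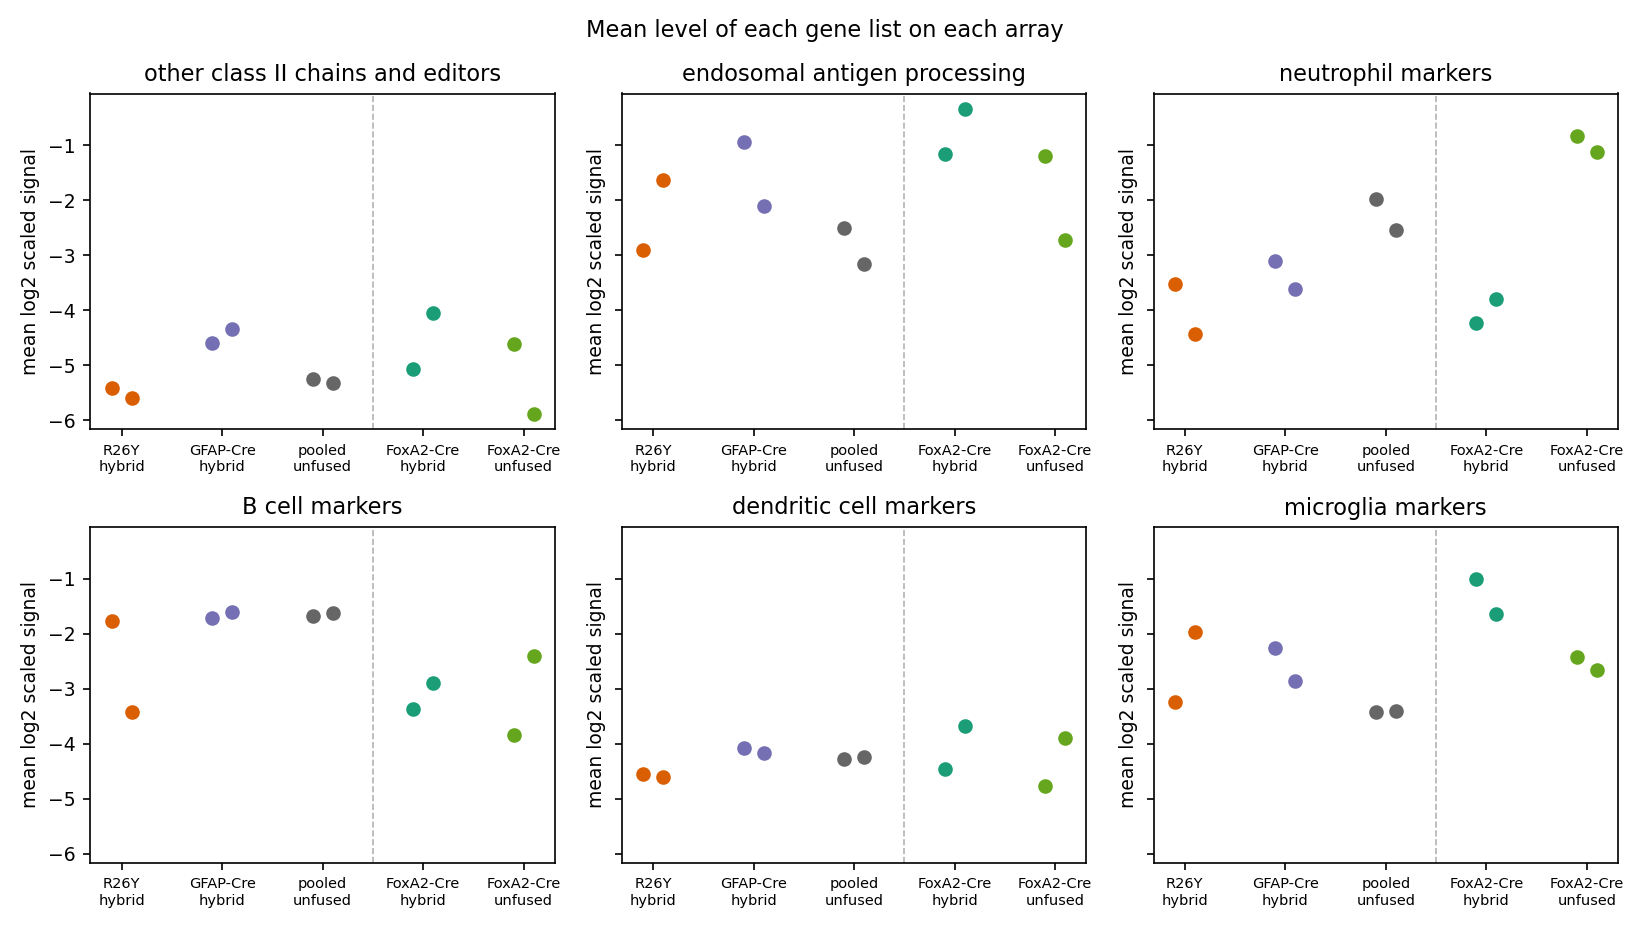
Mean level of 6 gene lists on each of the 10 arrays (log2 relative to the array's 75th percentile), by group, with the 2 slides separated by the dashed line; each point is 1 array. The neutrophil list is highest on the FoxA2-Cre unfused arrays (-0.83 and -1.12) and the microglia list on the FoxA2-Cre hybrid arrays (-1.01 and -1.63). Each mean takes in all tested genes of its list, also those not well above background.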

How the data were processed

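The authors deposited, for each 1-colour array, the scanner output of Agilent Feature Extraction 10.7.3.1. Its columns of mean, background and processed signal hold intensities per the file headers. Background subtraction and spatial detrending had been applied to the last of these on each array separately, with no normalization between arrays, per the same headers. The same deposited tables mark spots as well above background or non-uniform with 0 or 1. A table of log2 values, likewise deposited by the authors, served as an alternative. It follows the rank of mean signal minus background on each array (Spearman's rho 1 across spots). Its median is 7.39 on the 6 arrays of one slide and 6.26 on the 4 of the other, and its method is not given in the sources used here.

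Processed signals were taken as log2 minus the array's 75th percentile over the 9510 spots well above background on all 10 arrays. Non-uniform spots were dropped, and replicate spots of one probe averaged. Probes well above background on at least 2 arrays were kept, and a gene was read from its probe with the highest mean. Of 55681 probes 27422 matched a RefSeq accession, 2787 of which changed name. limma 3.58.1 in R 4.3.3 was fitted on all 32151 genes with two-sided moderated tests, Benjamini-Hochberg adjustment over all of them and a threshold of 0.05. Single comparisons were contrasts of 5 group means that shared their spread, leaving 5 residual degrees of freedom, and all hybrids against all unfused cells used the slide as a covariate, leaving 7. An "at least" fold sets the brighter group against the lowest signal well above background on the dimmer group's arrays, or the probe's own signal if higher. The fit was tested on simulated data. The number of arrays limits the precision, and p-values measure the spread between pools of 2 mice.

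The 6 genes, the gene lists, the marker lists, the tests and the naming rule were chosen with earlier results of these data known. By that rule all members are named, up to 4 genes per list with the smallest p in all hybrids against all unfused cells, and the 3 genes most like each member. Other list genes with printed values (H2-DMb1, Ptprc, Kit) are outside the rule. Sequences of probes come from the array files and promoters from RefSeq. Promoters of H2-Ab1, Cd74 and Ciita and protein sequences were not used here.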

Additional observations from a re-analysis of the deposited data

Results flagged for a closer look

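Among the 6 hybrid arrays the H2-Aa level of the second R26Y hybrid array, -6.86, lies far below the others. Its gap to the next array is 0.659 of the whole range of the hybrids, past the limit for 6 values. That array was not well above background for H2-Aa, and about 1 in 20 groups of values pass such a limit by chance.

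In 4 cases every hybrid array of one recipient type lay on one side of its slide's unfused mean and every hybrid array of another type on the opposite side. The share of all genes that meet this rule was not counted, so nothing particular to the members is read from the 4 cases. H2-Aa was above in FoxA2-Cre hybrids and below in R26Y and GFAP-Cre hybrids, with differences between the effects of 3.81 and 2.78 log2 units. H2-Ab1 was above in FoxA2-Cre hybrids and below in R26Y hybrids, a difference of 4.30. Cd74 was below in FoxA2-Cre hybrids and above in GFAP-Cre hybrids, a difference of -6.79. H2-Aa was well above background on 0 of the 4 FoxA2-Cre arrays and H2-Ab1 on 1, a hybrid one, so for both genes the side and size on that slide rest on values mostly at or below background. None of these 4 pairwise differences was tested. The test between the slides, which averages the R26Y and GFAP-Cre hybrids, gave limma adjusted p-values of 0.716 for H2-Aa, 0.836 for H2-Ab1 and 0.272 for Cd74.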

How the results depend on the processing

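The settings tried were normexp background correction (offset 50), quantile normalization, the 75th percentile over all spots, the authors' matrix, filters at 1 array, 5 arrays or none, the mean of a gene's probes, a block for the replicate number, the slide row or the slide column, array weights, the fit on 1 slide, no slide term for the pooled comparison, and leaving out each array. The count of members called was 0 under every one of these for all comparisons but that of FoxA2-Cre hybrids with FoxA2-Cre unfused cells. There 2 members were called, and 1 with the percentile over all spots, with the authors' matrix and with the mean of probes, each time H2-Eb1 (adjusted p 0.0256, 0.0204 and 0.0256). The count was 0 with normexp, quantile normalization, array weights, the replicate, row or column block, and the FoxA2-Cre slide alone, and ran from 0 to 2 when 1 array was left out. The cause was not tested. The smallest adjusted p over these settings was 0.0198 for H2-Eb1 and 0.0270 for Cd74, and their differences kept their sign. The H2-Eb1 difference was -3.23 with normexp, -3.98 with the matrix and -4.86 with quantile normalization in place of -5.81, and that of Cd74 -4.09, -4.60 and -4.74 in place of -5.79.

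The replicate numbers did not pair the samples, since deviations of arrays with the same number correlated at -0.05 to 0.07 in the 4 comparisons. With the replicate block the adjusted p was 0.0549 for H2-Eb1 and 0.0860 for Cd74, no member was called, and 105 genes were called in place of 170. All-gene calls in that comparison were 113 with normexp, 101 with array weights, 0 with either position block or the FoxA2-Cre slide alone, and 59 to 557 without 1 array. Calls for the difference between slides were 30 as reported, 9 with quantile normalization, 53 with the matrix, 0 with any block and 0 to 150 without 1 array. Without the first R26Y hybrid array 2314 genes were called against pooled unfused cells and 2180 against GFAP-Cre hybrids, in place of 0, and no member among them.

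Changes of sign touched only differences that no setting called. In all hybrids against all unfused cells, H2-Aa was -0.068 with the matrix, -0.28 with array weights and -0.87 on the R26Y and GFAP-Cre slide. H2-Ab1 was 0.0092 with quantile normalization, 0.0066 with the percentile over all spots, 0.77 with the column block and 1.62 on the FoxA2-Cre slide. H2-DMa was -0.25 with quantile normalization, -0.062 with the column block and -0.12 on the FoxA2-Cre slide, and Cd74 0.14 on the R26Y and GFAP-Cre slide. Ciita was -0.17 with quantile normalization, -0.23 with the matrix, -0.11 with array weights and -0.00090 without the slide term.

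In R26Y hybrids, H2-Eb1 was 0.069 with quantile normalization, 0.10 with the matrix and 0.79 with the column block, H2-DMa -0.15 with that block, and Ciita -0.10 and -0.12 with quantile normalization and the matrix. In GFAP-Cre hybrids the column block gave 0.82 for H2-Aa, 1.06 for H2-Ab1 and 0.43 for H2-Eb1, and the row block 0.16 for H2-Ab1 and 0.38 for Ciita. In FoxA2-Cre hybrids, H2-DMa was 0.79 with normexp, 0.079 with the matrix and 0.42 with the row block, and Ciita -0.12 with quantile normalization, -0.12 with the matrix and -0.45 with the row block. Row and cell type coincide on the FoxA2-Cre slide, so the row block there subtracts a row effect estimated on the other slide. It cannot separate position from cell type. Between the hybrid types, H2-DMa was -0.016 with the matrix. For the difference between slides, H2-DMa was 0.39 with normexp and 0.025 with the row block, and Ciita -1.15 with that block.

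When 1 array was left out, signs changed over these ranges. In all hybrids against all unfused cells they were -0.055 to 1.08 for H2-Aa and -0.47 to 0.93 for H2-Ab1. In R26Y hybrids they were -1.33 to 0.65 for H2-Eb1, -1.56 to 0.11 for Cd74 and -0.46 to 1.19 for Ciita. In GFAP-Cre hybrids they were -1.56 to 1.37 for H2-Ab1, -1.50 to 0.48 for H2-Eb1 and -0.75 to 0.21 for Ciita, and in FoxA2-Cre hybrids -0.71 to 0.48 for H2-DMa. Between the hybrid types they were -0.51 to 0.16 for H2-Eb1, -0.21 to 1.28 for H2-DMa and -1.46 to 0.19 for Ciita.

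Depth limits the FoxA2-Cre slide most: of the 4 arrays there, H2-Aa was well above background on 0, H2-Ab1 and H2-DMa on 1 and H2-Eb1 on 2.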
